A study of Mus musculus with 38 samples.

Results

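Of the 55487 genes counted in this series, 4 are described here: Aire, Mgarp, Esam and Grin1. They were chosen by name because each had close to 0 counts in normoxia in at least 1 of the cell types studied, together with a high level in hypoxia, so their normoxic and hypoxic counts are given as a description, with no test of oxygen. The series holds polyadenylated RNA of mouse cells, in 38 libraries and 18 groups: BV2 cells (an immortalised murine microglial line), GL261 cells (a murine glioma line stably carrying the plasmid pEGFP-N1, which encodes a green fluorescent protein) and macrophages grown from the bone marrow of wild-type mice (BMDM). Cells were held for 16 h at 21% O2 (normoxia) or below 0.1% O2 (hypoxia). All groups were fixed in 3% glyoxal before their RNA was taken.

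Each cell type was grown as a monoculture and as a co-culture at both oxygen levels. The co-cultures held 2 GL261 cells for each BV2 cell, or 1 GL261 cell for each BMDM, and each co-culture library is labelled with the cell type it holds; how the cells were separated is not given in the sources used here. GL261 co-culture libraries were deposited in the table of the BV2 experiment, and BV2 is taken as their partner here. In libraries of a separate table, BV2 cells and BMDM received the solvent dimethyl sulfoxide (DMSO) in normoxia, DMSO in hypoxia, or panobinostat, which inhibits histone deacetylases, at 10 nM in hypoxia. Panobinostat in normoxia and panobinostat in GL261 cells were not analysed here. BV2 cells were kept in 2% serum and BMDM in 10% serum. There were 3 libraries of each BMDM co-culture group and 2 of every other group. For the BV2 and GL261 monocultures and co-cultures the labels call the 2 libraries of a condition biological replicates; for the other groups nothing says that libraries came from separate mice or cultures, so their p-values measure only the spread between these libraries.

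Library totals ran from 9634700 to 27238933 counts, so 3 counts, the limit used here for calling a gene off, correspond to 0.110 to 0.311 CPM (counts of a gene scaled to the library total). The cell labels were checked against marker genes. The summed level of 12 macrophage and microglia markers was 1391 to 3199 CPM in BV2 libraries, 699.9 to 8777 CPM in BMDM libraries and 2.12 to 25.2 CPM in GL261 libraries. The 8 glial and glioma markers summed to 2185 to 4092 CPM in GL261 libraries, 0.514 to 66.0 CPM in BV2 libraries and at most 329.0 CPM in BMDM libraries. The BMDM libraries of the panobinostat group stood apart: their macrophage and microglia markers summed to 699.9 to 1878 CPM, against 2330 to 3933 CPM in the hypoxic DMSO group, and their 8 neuronal markers summed to 176.1 to 197.3 CPM, against 30.1 to 65.7 CPM.

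Cells short of oxygen stabilise the alpha subunits of the hypoxia-inducible factors (HIF), which bind the hypoxia response element, a short motif with the core ACGTG or GCGTG, and raise transcription of genes for glycolysis, pH control and blood vessel growth. The genes described here are best known from other settings. Aire encodes the autoimmune regulator, which lets medullary thymic epithelial cells transcribe genes of other tissues so that self-reactive T cells are removed. Mgarp encodes a mitochondrial protein, also called HUMMR, that binds the Miro and TRAK adaptors of mitochondrial transport and is described as a HIF-dependent gene of neurons. Esam encodes an immunoglobulin-family adhesion molecule of endothelial tight junctions and platelets. Grin1 encodes the subunit that every NMDA-type glutamate receptor of neurons needs.

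In mm10 coordinates, Aire (ENSMUSG00000000731) lies on the minus strand of chromosome 10 from 78030022 to 78043610, and Mgarp (ENSMUSG00000037161) on the minus strand of chromosome 3 from 51388412 to 51396738. Esam (ENSMUSG00000001946) lies on the plus strand of chromosome 9 from 37528078 to 37538319, and Grin1 (ENSMUSG00000026959) on the minus strand of chromosome 2 from 25291181 to 25319187. All are protein-coding, and the counts are over whole genes. Merged exons cover 3825 bases of Aire, 2067 of Mgarp, 2867 of Esam and 9700 of Grin1, which matters when levels of different genes are compared.

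Since the genes were chosen for a common pattern, low in normoxia and high in hypoxia, their promoters are shown. RefSeq promoters of build GRCm38.p6, 250 bases before to 50 after the annotated start, were found for 3 of the 4 genes, all but Esam. They are written 5′ to 3′ along the gene, with capitals marking each match to ACGTG or GCGTG on either strand, and the first transcribed base is position 1. The windows are chr10:78043561-78043860 for Aire, chr3:51396498-51396797 for Mgarp and chr2:25319138-25319437 for Grin1, all on the minus strand.
Aire: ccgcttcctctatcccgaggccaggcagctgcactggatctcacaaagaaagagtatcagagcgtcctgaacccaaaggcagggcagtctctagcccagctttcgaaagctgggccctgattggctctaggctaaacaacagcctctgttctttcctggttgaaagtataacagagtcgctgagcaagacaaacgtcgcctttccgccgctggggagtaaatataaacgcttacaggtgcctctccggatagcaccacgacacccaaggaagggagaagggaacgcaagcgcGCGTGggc
Mgarp: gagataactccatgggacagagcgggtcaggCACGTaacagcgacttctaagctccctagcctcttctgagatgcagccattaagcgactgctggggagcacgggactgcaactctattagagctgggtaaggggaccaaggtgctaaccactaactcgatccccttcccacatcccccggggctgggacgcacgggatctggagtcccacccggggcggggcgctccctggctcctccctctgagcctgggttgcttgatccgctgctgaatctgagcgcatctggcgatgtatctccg
Grin1: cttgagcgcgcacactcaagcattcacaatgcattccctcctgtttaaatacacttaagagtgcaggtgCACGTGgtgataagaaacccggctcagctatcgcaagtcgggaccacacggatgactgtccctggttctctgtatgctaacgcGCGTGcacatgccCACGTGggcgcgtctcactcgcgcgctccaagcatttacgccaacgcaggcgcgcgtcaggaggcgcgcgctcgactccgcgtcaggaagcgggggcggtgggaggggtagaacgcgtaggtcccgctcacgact

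The Aire window held 1 match, GCGTG at position 43 after the start. The Mgarp window held 1 match, ACGTG on the opposite strand at position -219. The Grin1 window held 5 matches. Of these, 4 come from 2 copies of the palindrome CACGTG, each of which holds ACGTG on both strands, at positions -181 and -85, and the other is GCGTG at position -98. Among 27025 promoters of the same length, 43.42% held at least 1 match to ACGTG or GCGTG and 20.56% at least 2, so single matches are common in such windows. The palindrome CACGTG, looked at after these matches were seen, occurred in 7.09% of the promoters, and 2 or more copies occurred in 0.61%. The share of G and C was 55.3% in the Aire window and 60.7% in both the Mgarp and the Grin1 window, beside a median of 52.7% over all promoters. These matches describe the sequence and say nothing of binding.

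In the account that follows, a gene is called off in a group when every library had at most 3 counts, on when every library had at least 1 CPM, and intermediate otherwise. Across the 18 groups Aire was off in 7 and on in 5, Mgarp off in 7 and on in 8, Esam off in 8 and on in 4, and Grin1 off in 4 and on in 8. Aire was highest in hypoxic GL261 cells, Mgarp and Esam in hypoxic BMDM, and Grin1 in hypoxic BV2 cells. Their on states were partly shared. Aire and Mgarp were both on in hypoxic GL261 cells, and Aire, Mgarp and Esam in hypoxic BMDM co-cultures and hypoxic BMDM with DMSO. Grin1 was also on in hypoxic GL261 monocultures, and it was on with Mgarp in normoxic GL261 cells. It was on with Aire in hypoxic BV2 co-cultures, and with Mgarp and Esam in BMDM with panobinostat. RNA was taken from bulk samples, so fewer cells of a type and less RNA per cell cannot be told apart.

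**Figure D1:**
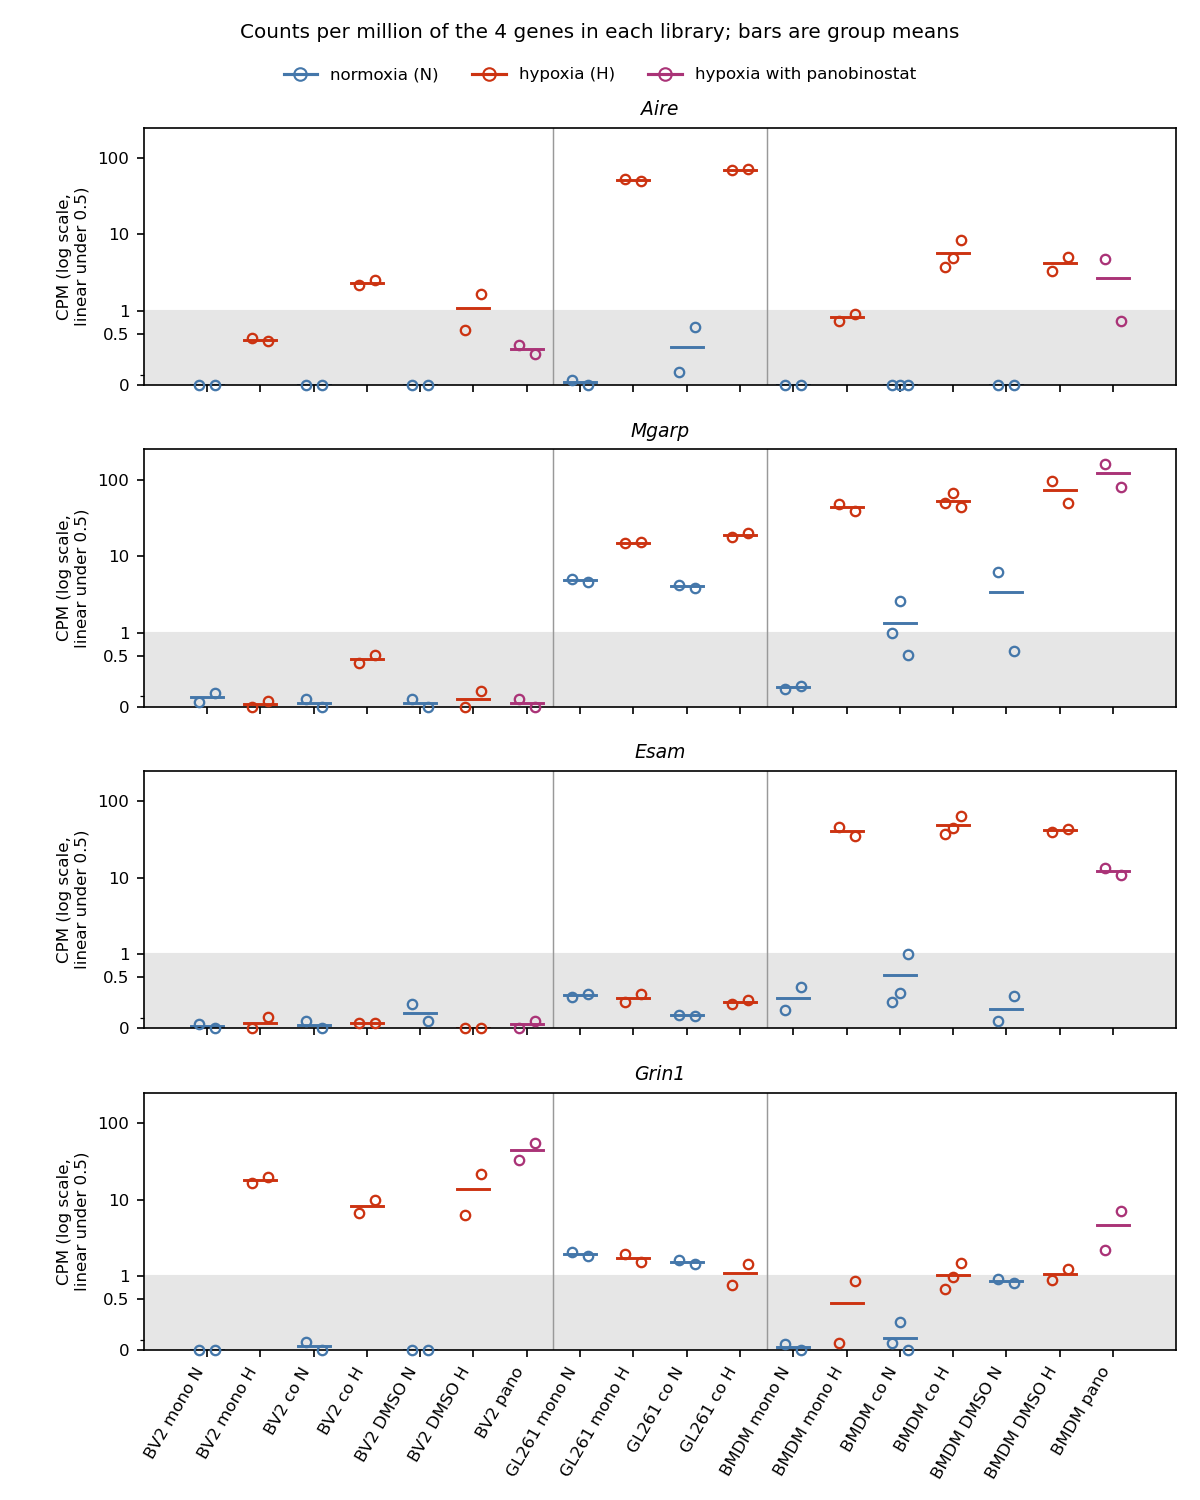
CPM of each gene in every library (points) with the group mean (bar), on an axis that is logarithmic above 0.5 CPM and linear below; the grey band marks levels under 1 CPM, and mono, co, N and H stand for monoculture, co-culture, normoxia and hypoxia. Aire is highest in hypoxic GL261 libraries (49.3 to 70.8 CPM), Mgarp and Esam in hypoxic BMDM libraries, and Grin1 in hypoxic BV2 libraries, with each normoxic group of those cells under 7 CPM.

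Aire reached its highest levels in hypoxic GL261 cells. Normoxic GL261 monocultures had 1 and 0 Aire counts, and hypoxic ones 1431 and 886 counts (52.5 and 49.3 CPM). The ratio of the group means, 0.0258 ± 0.0365 and 50.9 ± 2.27 CPM (SD, n = 2), was 1972, with a 95% counting interval of 340.0 to 74931, wide because the normoxic total was 1 count. Normoxic GL261 co-cultures had 2 and 10 counts, an intermediate state set by replicate 2, and hypoxic ones 1184 and 1275 counts (70.2 and 70.8 CPM). The hypoxic mean of 70.5 ± 0.485 CPM was 188.7-fold above the normoxic mean (counting interval 106.1 to 360.0). Normoxic and hypoxic libraries did not overlap in either culture, and hypoxic Aire in GL261 cells was above that in every BV2 and BMDM library.

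Aire had 0 counts in all 6 normoxic BV2 libraries and all 7 normoxic BMDM libraries, and some counts in every hypoxic one. Hypoxic BV2 monocultures had 8 and 8 counts (0.457 and 0.431 CPM), a mean of 3.37 times the 3-count limit of the normoxic libraries. With 0 normoxic counts, such a value is given as a lower bound of the ratio to normoxia. Hypoxic BV2 co-cultures had 40 and 45 counts (2.16 and 2.54 CPM), and hypoxic BV2 cells with DMSO 8 and 22 counts (0.557 and 1.65 CPM). The first and last of these groups were intermediate and the co-culture was on. Hypoxic BMDM monocultures had 11 and 15 counts (0.731 and 0.923 CPM), and hypoxic BMDM with DMSO 52 and 49 counts (3.30 and 5.09 CPM). Hypoxic BMDM co-cultures had 39, 71 and 98 counts (3.80, 4.85 and 8.45 CPM), a mean of 24.2 times the 3-count limit. The mean of the DMSO-treated BMDM was 21.1 times that limit, and the mean of the monocultures 4.35 times. The 2 hypoxic groups come from separate tables and were not compared by a test. In order of mean level, hypoxic BMDM co-cultures, BMDM with DMSO and BMDM with panobinostat overlapped with their neighbours, and both GL261 groups stood above them without overlap.

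Mgarp was off in normoxic BMDM monocultures, at the limit itself with 3 and 3 counts, and on in hypoxic ones, with 719 and 634 counts (47.8 and 39.0 CPM). The ratio of the means, 0.190 ± 0.0196 and 43.4 ± 6.20 CPM (SD, n = 2), was 228.0 (counting interval 104.6 to 623.3). Normoxic BMDM co-cultures had 15, 37 and 5 counts (0.980, 2.55 and 0.505 CPM) and hypoxic ones 509, 975 and 506 counts (49.6, 66.6 and 43.6 CPM). The hypoxic levels of monoculture and co-culture overlapped, while the co-culture began from a higher normoxic level and its ratio was 39.6.

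BMDM with DMSO had 89 and 9 Mgarp counts in normoxia (6.17 and 0.567 CPM) and 1519 and 484 counts in hypoxia (96.5 and 50.2 CPM). The normoxic replicates were far apart, so the ratio of the means, 21.8, rests on normoxic replicate 1: without it the log2 ratio moved from 4.44 to 7.01. Of 30 HIF targets, 25 were higher in normoxic replicate 1 than in replicate 2 and 4 lower. Among the higher were Egln3 (87.8 and 6.24 CPM), Bnip3 (107.5 and 21.9 CPM) and Adm (18.3 and 4.10 CPM). The share of all genes higher in replicate 1 was not counted, so this is not shown to be particular to HIF targets. The 2 replicates differed widely across genes (chi-square per degree of freedom 106). The part of the HIF targets in the Mgarp values was not tested.

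In GL261 cells Mgarp was on at both oxygen levels, with 98 and 80 counts (5.06 and 4.54 CPM) in normoxic and 405 and 271 counts (14.9 and 15.1 CPM) in hypoxic monocultures, a ratio of 3.12. Its ratio in GL261 co-cultures was 4.65, from 65 and 62 counts to 298 and 356. In BV2 cells it was off in 6 of 7 groups, with at most 3 counts per library. The exception was the hypoxic co-culture, which had 8 and 9 counts (0.432 and 0.508 CPM).

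Esam was counted in quantity in hypoxic BMDM and hardly elsewhere. BMDM monocultures had 3 and 6 counts in normoxia, so that replicate 2 put the group outside the off limit, and 702 and 578 counts in hypoxia (46.7 and 35.6 CPM), a ratio of 140.6 (counting interval 75.6 to 315.7). BMDM co-cultures had 4, 5 and 10 counts in normoxia and 382, 661 and 753 counts in hypoxia (37.2, 45.2 and 64.9 CPM). BMDM with DMSO had 1 and 5 counts in normoxia and 630 and 416 counts in hypoxia (40.003 and 43.2 CPM). The hypoxic means of these groups, 41.1 ± 7.84 (n = 2), 49.1 ± 14.3 (n = 3) and 41.6 ± 2.24 CPM (n = 2), overlapped between libraries, and none overlapped with its normoxic group. GL261 libraries held 2 to 7 Esam counts at either oxygen level and BV2 libraries 0 to 3.

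Since Esam marks endothelium, the endothelial markers were examined. Their summed level also was higher in hypoxic BMDM monocultures, 101.2 to 134.8 CPM against 24.3 to 40.2 CPM in normoxia, but of 8 markers Tek, Tie1, Cldn5 and Emcn had 0 counts in the hypoxic group. Cdh5, the cadherin of endothelial junctions, did not exceed 4.04 CPM and Pecam1 3.05 CPM in any BMDM library, whereas Vwf, which encodes von Willebrand factor, reached 121.4 CPM. BV2 cells had 176.1 to 240.3 CPM of these markers in hypoxic monocultures, with Esam at 0 and 2 counts.

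Grin1 was off in normoxic BV2 cells and on in hypoxic ones. BV2 monocultures had 0 and 0 counts in normoxia and 284 and 362 counts in hypoxia (16.2 and 19.5 CPM). The hypoxic mean was 135.6 times the 3-count limit of the normoxic libraries. BV2 co-cultures had 1 and 0 counts in normoxia and 124 and 175 counts in hypoxia (6.70 and 9.87 CPM). BV2 cells with DMSO had 0 and 0 counts in normoxia and 90 and 283 counts in hypoxia (6.27 and 21.3 CPM), a mean of 61.4 times the limit.

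In GL261 cells Grin1 did not follow oxygen: monocultures had 40 and 32 counts in normoxia and 53 and 27 counts in hypoxia, a ratio of 0.889 with a counting interval of 0.653 to 1.27 that includes 1. BMDM monocultures had 1 and 0 counts in normoxia and 1 and 14 in hypoxia, where the second library alone was above the limit. BMDM co-cultures had 1, 4 and 0 counts in normoxia and 7, 14 and 17 in hypoxia (0.682, 0.957 and 1.47 CPM), which did not overlap and gave a ratio of 9.10 (counting interval 3.25 to 26.9). In the DMSO groups BMDM held 13 and 13 counts in normoxia and 14 and 12 in hypoxia, a ratio of 1.24 (counting interval 0.666 to 2.14). The neuronal markers of BMDM also differed between these tables, with summed levels of 8.57 to 8.65 CPM in normoxic monocultures and 47.1 to 49.4 CPM in normoxic DMSO libraries. Their part in the Grin1 values was not tested. In BV2 libraries, where Grin1 was highest, the neuronal markers summed to at most 2.65 CPM.

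Per length of exon, the hypoxic levels of the genes were less alike than their CPM. In RPKM (CPM per kilobase of exon), hypoxic GL261 monocultures had 13.3 ± 0.595 for Aire, hypoxic BMDM monocultures 21.0 ± 3.00 for Mgarp and 14.3 ± 2.73 for Esam, and hypoxic BV2 monocultures 1.84 ± 0.238 for Grin1 (SD, n = 2 each). Grin1 was thus the lowest of the 4 on this scale. Its length here, 9700 bases, is that of exons merged over 14 annotated transcripts and not of a single message, so its RPKM may be too low.

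To read the genes against the whole table, all 55487 genes were passed through the same limits. In BV2 cells 52 genes were off in normoxia and on in hypoxia in monoculture (0.0937% of all), 78 in co-culture (0.141%) and 49 with DMSO (0.0883%). In GL261 cells there were 10 in monoculture (0.018%) and 13 in co-culture (0.0234%). In BMDM there were 36 in monoculture (0.0649%), 24 in co-culture (0.0433%) and 76 with DMSO (0.137%). The members were chosen on this contrast, for low normoxic and high hypoxic levels. Neither their presence among these genes nor their rank by hypoxic level is therefore a finding.

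Aire was the highest of the 10 genes of GL261 monocultures by hypoxic mean CPM, Mgarp the highest of the 36 of BMDM monocultures, and Grin1 the second of the 52 of BV2 monocultures. Esam met the limits in no comparison, because every normoxic BMDM group had a library with 5 or more counts. In all, 251 genes met the limits in at least 1 of the 8 comparisons; 189 did so in only 1 and none in more than 4. By cell type, 237 met them in 1 of the 3 cell types, 13 in 2, and 1, which was Aire, in all 3. Aire met the limits in 4 comparisons: GL261 monoculture, BMDM co-culture, BMDM with DMSO and BV2 co-culture. In BV2 cells it did so only in co-culture, at 2.35 CPM, and it was intermediate in BV2 monoculture and with DMSO. Of the 2.35 CPM, GL261 RNA could carry 1.12 CPM by the estimate given further on. That estimate uses the Aire level of GL261 monocultures, which was below that of GL261 co-cultures. Grin1 met them in 3, all in BV2 cells.

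The other genes that met the limits most often, in 4 comparisons each, were the histone gene Hist1h4m, Cbln3, a cerebellin precursor gene, and Nodal, a ligand of the TGF-beta family. Hist1h4m and Cbln3 met them in all 3 BV2 comparisons and in BMDM with DMSO, with hypoxic means of up to 5.38 and 11.1 CPM. Nodal met them in BV2 monoculture, BV2 with DMSO, BMDM monoculture and BMDM co-culture, with up to 4.72 CPM.

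**Figure D2:**
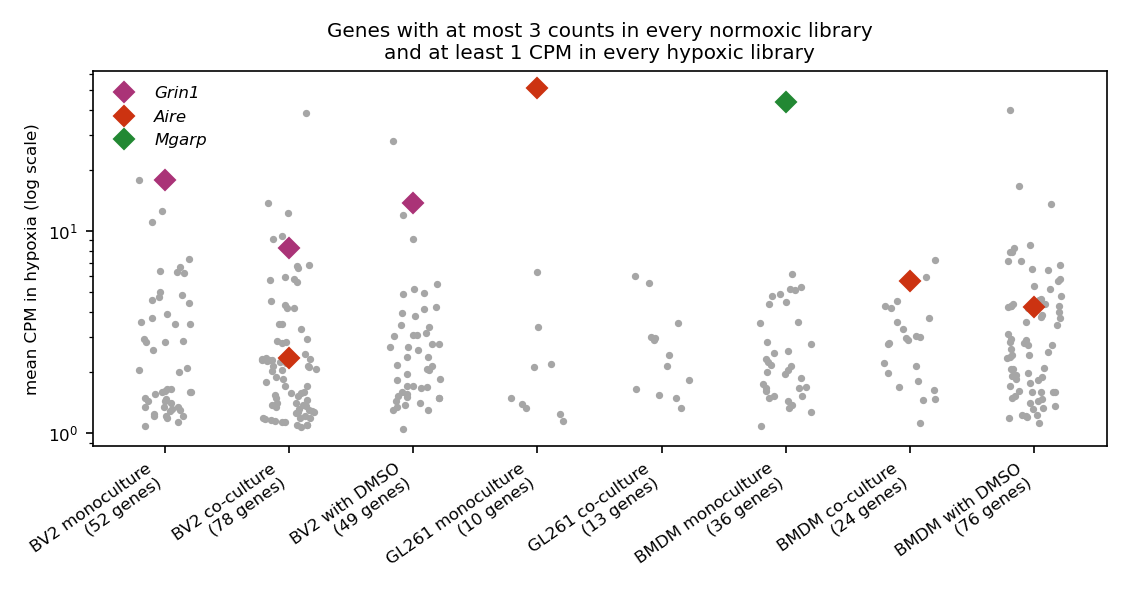
Hypoxic mean CPM (log axis) of every gene that was off in normoxia and on in hypoxia, for each of the 8 comparisons; grey points are other genes, diamonds the genes described here, and the number of genes is under each name. Aire tops the 10 genes of GL261 monocultures and Mgarp the 36 of BMDM monocultures, while Aire lies within the range of the others in BV2 and BMDM. The genes were chosen for a high hypoxic level, so their rank is no finding.

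Co-culture was compared with monoculture, and panobinostat with DMSO. The monoculture levels are among the values that chose the members, so a test against them is not wholly independent of that choice. Of 48 combinations of gene and comparison, 17 were tested, 17 had counts at the floor and 5 were removed by the low-count filter. The other 9 are given as values with no test, because they are built from the normoxic counts that chose the members or had fewer than 2 libraries with 10 counts among the groups compared. In hypoxic BV2 cells, Aire was higher and Grin1 lower in co-culture than in monoculture. In hypoxic BMDM, Aire was higher in co-culture. No member passed the test in GL261 cells.

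In hypoxic BV2 cells both members that could be tested passed, in a comparison in which 15.7% of 14432 genes did, 8.13% higher and 7.57% lower (edgeR quasi-likelihood test, adjusted p under 0.05). Aire was 0.444 ± 0.0186 CPM in monoculture and 2.35 ± 0.267 CPM in co-culture (SD, n = 2), a log2 change of 2.40 (SE 0.43, edgeR adjusted p 0.00164). Aire passed the low-count filter only through its hypoxic co-culture libraries, the group called higher, so this call is not independent of the filter. Grin1 was 17.9 ± 2.31 CPM in monoculture and 8.28 ± 2.24 CPM in co-culture, a log2 change of -1.10 (SE 0.21, edgeR adjusted p 0.00220). Monoculture and co-culture libraries did not overlap for either gene. The smaller Grin1 level in co-culture was still far from its normoxic state of 0 and 1 counts.

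In hypoxic BMDM, 1 of 4 members passed, against 7.11% of 14806 genes, 4.06% of them higher. Aire was 0.827 ± 0.136 CPM in monoculture (n = 2) and 5.70 ± 2.44 CPM in co-culture (n = 3), a log2 change of 2.66 (SE 0.50, edgeR adjusted p 0.0235), with all 3 co-culture libraries above both monoculture libraries. This call was lost without replicate 1 or 2 of the monoculture (edgeR adjusted p 0.170 and 0.177) or replicate 3 of the co-culture (0.0642), within a range of 2.75e-05 to 0.177 over 11 alternatives. Mgarp changed by 0.21 (SE 0.34), Esam by 0.15 (SE 0.28) and Grin1 by 1.01 (SE 0.91) on the log2 scale, none past the threshold (edgeR adjusted p 0.749, 0.791 and 0.542).

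A co-culture library holds some RNA of the partner, and Aire is highest in the GL261 partner, so the level that partner RNA could carry was computed. The share of GL261 RNA was estimated from genes of at least 20 CPM in GL261 monocultures and at least 100-fold lower in the other cell type, as the median of their co-culture level divided by their GL261 level. In hypoxic BV2 co-cultures the share was 2.07% and 2.33%. Multiplied by the Aire level of hypoxic GL261 monocultures and added to that of BV2 monocultures, it gives 1.50 and 1.63 CPM, where 2.16 and 2.54 CPM were measured. Aire was higher in hypoxic GL261 co-cultures than in monocultures, at 70.5 against 50.9 CPM. Sums taken with the co-culture level would be higher, and the excess of the measured level smaller.

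In hypoxic BMDM co-cultures the GL261 share was 1.66%, 3.19% and 5.94% in replicates 1, 2 and 3. The same sums are 1.67, 2.45 and 3.85 CPM, and the measured Aire levels were 3.80, 4.85 and 8.45 CPM. Measured Aire was above the sum, taken with the GL261 monoculture level, in all 5 co-culture libraries. In BMDM the library with more GL261 RNA also had more Aire. How far Aire transcribed by BV2 cells or BMDM changed in co-culture was not tested.

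**Figure D3:**
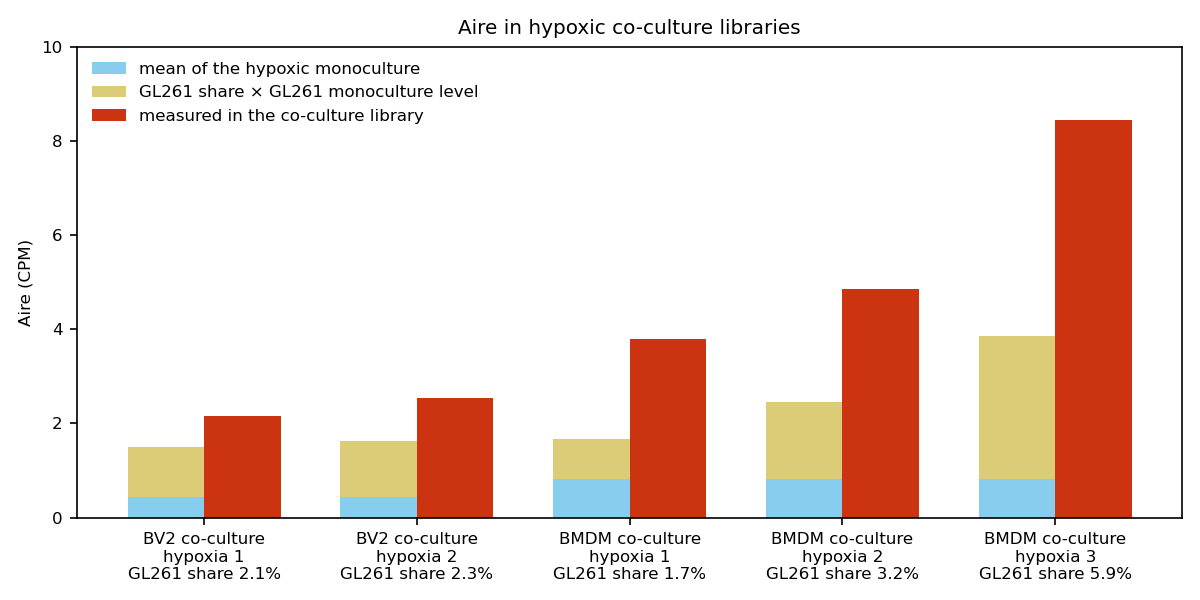
Aire level (CPM) in each hypoxic co-culture library of BV2 cells and BMDM (red bars) beside the sum of the hypoxic monoculture mean (blue) and the GL261 share of the library times the GL261 monoculture level (yellow). The measured level is above the sum in all 5 libraries, and both are highest in BMDM replicate 3, with a GL261 share of 5.94%.

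The same sums were taken for the other members. Grin1 in hypoxic BV2 co-cultures had a partner part of 0.0379 CPM, against a fall from 17.9 to 8.28 CPM. The 8 and 9 Mgarp counts of hypoxic BV2 co-cultures correspond to 0.470 ± 0.0534 CPM, beside a sum of 0.356 CPM of partner and own RNA. In normoxic BMDM co-cultures Mgarp was 1.34 ± 1.07 CPM (n = 3), beside a sum of 0.306 CPM.

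In normoxic BMDM no member was tested. Mgarp, with 3 and 3 counts in monoculture and 15, 37 and 5 in co-culture, was higher in all 3 co-culture libraries, and Esam, with 3 and 6 against 4, 5 and 10 counts, overlapped. The normoxic counts of both are among the values that chose them, and Esam passed the low-count filter through its hypoxic libraries. In normoxic BV2 cells all 4 members were at the floor in both cultures, where 14.9% of genes changed.

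In GL261 cells, neither of the 2 members tested in normoxia passed, where 0.514% of 15189 genes did, and none of the 3 tested in hypoxia, where 1.39% did. At an unadjusted p under 0.05 there were 0 members in normoxia, beside 1287 of all 15189 genes. In hypoxia there were 2 members at this limit, beside 2282 of all 15189 genes. Aire in hypoxia was 50.9 ± 2.27 CPM in monoculture and 70.5 ± 0.485 CPM in co-culture, a log2 change of 0.53 (SE 0.19, edgeR adjusted p 0.218). Mgarp was 14.98 ± 0.153 and 18.7 ± 1.50 CPM, a log2 change of 0.38 (SE 0.17, edgeR adjusted p 0.327). Grin1 in hypoxia was lower in co-culture, 1.72 ± 0.313 and 1.11 ± 0.477 CPM, a log2 change of -0.60 (SE 0.39, edgeR adjusted p 0.504). In normoxia Mgarp changed by -0.21 (SE 0.20) and Grin1 by -0.31 (SE 0.38) on the log2 scale (edgeR adjusted p 0.821 and 0.871). Aire in normoxia, with 1 and 0 counts in monoculture and 2 and 10 in co-culture, was not tested. The share of BV2 RNA in GL261 co-cultures was 0.771% ± 0.204 in normoxia and 0.241% ± 0.0371 in hypoxia (SD, n = 2), and carries at most 0.0430 CPM of any member.

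The difference between the oxygen responses of co-culture and monoculture is built from the same normoxic and hypoxic values that chose the members, so it is given with no test. On the log2 scale, co-culture minus monoculture, it was -3.03 for Aire in GL261 cells, where the normoxic monocultures held 1 count in all, 0.59 for Mgarp and -0.29 for Grin1 in GL261 cells, and -2.66 for Mgarp and -0.64 for Esam in BMDM. In BV2 cells no member had enough normoxic counts for this value.

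Panobinostat was tested against DMSO in hypoxia. In BV2 cells Grin1 was higher with panobinostat, while in BMDM no member passed. Grin1 in BV2 cells had 90 and 283 counts with DMSO (6.27 and 21.3 CPM) and 416 and 724 with panobinostat (32.9 and 54.8 CPM). The means were 13.8 ± 10.6 and 43.9 ± 15.5 CPM (SD, n = 2), a log2 change of 1.60 (SE 0.45, edgeR adjusted p 0.0469), and 14.6% of 13294 genes passed in this comparison, 7.21% higher. The libraries did not overlap, but both groups had a wide spread, and the call was lost without DMSO replicate 1 (edgeR adjusted p 0.0821), panobinostat replicate 1 (0.0678) or 2 (0.199), and with a filter at a mean of 1 CPM (0.0510), within a range of 2.06e-06 to 0.199 over 10 alternatives. Neuronal markers summed to 2.53 to 2.65 CPM with panobinostat and 0.557 to 0.602 CPM with DMSO, and macrophage and microglia markers to 1391 to 1565 and 2288 to 2443 CPM; their part in the Grin1 values was not tested.

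The other members in BV2 cells were near or at the floor with and without panobinostat. Aire had 8 and 22 counts with DMSO and 5 and 4 with panobinostat, and was removed by the low-count filter. Mgarp had at most 2 counts and Esam at most 1 in any of these 4 libraries, so no difference was detectable at this depth.

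In hypoxic BMDM, Esam had 630 and 416 counts with DMSO (40.003 and 43.2 CPM) and 183 and 132 with panobinostat (13.5 and 10.8 CPM). The means were 41.6 ± 2.24 and 12.1 ± 1.89 CPM (SD, n = 2), a log2 change of -2.07 (SE 0.40, edgeR adjusted p 0.0644). In this comparison 0 of 14914 genes passed in edgeR, where 3868 had an unadjusted p under 0.05 and DESeq2 called 2023. Esam passed in 3 of 11 alternatives, DESeq2 among them (adjusted p 1.87e-05), with a range of 1.87e-05 to 0.263 and the same sign in each. Even so, Esam with panobinostat was on, above its normoxic 0.192 ± 0.174 CPM. Macrophage and microglia markers were also lower with panobinostat in BMDM, as given above, and their part in the Esam values was not tested.

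Grin1 in BMDM had 14 and 12 counts with DMSO and 30 and 87 with panobinostat (2.21 and 7.11 CPM), a log2 change of 1.83 (SE 0.67, edgeR adjusted p 0.159). Neuronal markers were higher in the same libraries, with all 8 counted and 6 at a mean of 1 CPM or more, against 3 in the DMSO group; their part in the Grin1 values was not tested. Mgarp had 1519 and 484 counts with DMSO and 2191 and 992 with panobinostat (161.2 and 81.1 CPM), overlapping ranges with a log2 change of 0.42 (SE 0.91, edgeR adjusted p 0.805). Aire had 52 and 49 counts with DMSO and 64 and 9 with panobinostat, so the panobinostat replicates disagreed, and the log2 change was -0.89 (SE 0.90, edgeR adjusted p 0.575).

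**Figure D4:**
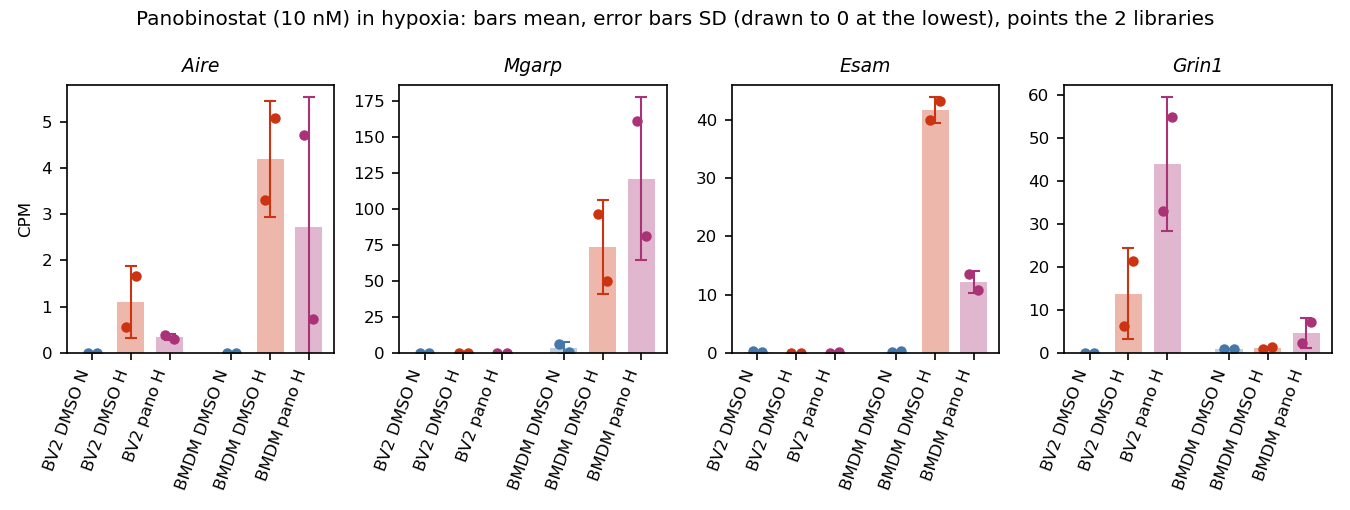
CPM of the genes in BV2 cells and BMDM with DMSO in normoxia (N), DMSO in hypoxia (H) or 10 nM panobinostat in hypoxia; bars are means, error bars the SD (drawn no lower than 0) and points the 2 libraries. Grin1 in BV2 cells is higher with panobinostat (43.9 against 13.8 CPM). In BMDM no member passed the test: Esam is at 12.1 against 41.6 CPM, and the Mgarp and Aire libraries overlap.

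Whether panobinostat acted differently in BMDM and BV2 cells could be tested for Grin1 alone. The difference of the log2 changes, BMDM minus BV2, was 0.24 (SE 0.87, edgeR adjusted p 0.988), and 0.0251% of 15955 genes passed. The standard error leaves room for sizeable differences in either direction. Aire was not tested, since its counts were below the filter in BV2 cells.

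Genes next to the members were examined for reads that could be counted to them. The gene downstream of Aire on the same strand, 19939 bases away, is Pfkl, a subunit of phosphofructokinase in glycolysis. It rose with hypoxia in all 3 monocultures, by 2.71 (SE 0.13) in BV2 cells, 2.25 (SE 0.14) in GL261 cells and 2.59 (SE 0.19) in BMDM on the log2 scale (edgeR adjusted p 2.03e-10, 1.63e-06 and 1.56e-05). Icosl, 25692 bases upstream and a ligand of T cell costimulation, rose in GL261 cells by 1.22 (SE 0.27, edgeR adjusted p 0.00365) and fell in BMDM, with a log2 change of -0.89 (SE 0.19, edgeR adjusted p 0.00731).

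Dnmt3l, a cofactor of DNA methylation, overlaps Aire by 67 exon bases on the opposite strand. In GL261 monocultures, where Aire was highest, Dnmt3l had 0 counts in normoxia and 3 in hypoxia in all. In BV2 cells, where Aire was at 8 counts, Dnmt3l rose from 5.81 ± 0.249 to 11.4 ± 0.909 CPM (SD, n = 2; log2 change 1.02, edgeR adjusted p 6.79e-05), and in BMDM from 1.99 ± 0.561 to 11.3 ± 1.93 CPM (log2 change 2.77, edgeR adjusted p 0.00485). Aire was on in 3 further hypoxic groups. There Dnmt3l went from 4.02 ± 1.51 to 20.6 ± 11.5 CPM in BMDM co-cultures (n = 3) and from 2.12 ± 0.237 to 24.8 ± 26.2 CPM in BMDM with DMSO (n = 2). In BV2 co-cultures it was 10.4 ± 1.63 and 11.3 ± 0.669 CPM (n = 2). The setting for strand in the counting is not given in the sources used here, and the part of Dnmt3l reads in the Aire counts was not tested. Aire had 0 counts in all 6 normoxic BV2 libraries, where Dnmt3l was at 5.63 CPM or more, and in all 7 normoxic BMDM libraries, where it was at 1.59 CPM or more.

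Vsig2, an immunoglobulin-family gene, starts 936 bases beyond the end of Esam on the same strand. It had 0 counts in every normoxic BMDM library and totals of 11 counts in hypoxic monocultures, 46 in hypoxic co-cultures and 20 in hypoxic DMSO libraries, beside 1280, 1796 and 1046 Esam counts. In monoculture this was a log2 change of 5.48 (SE 1.35, edgeR adjusted p 0.0219), which depends on how 0 counts are treated. Upstream of Esam, Msantd2 rose in BV2 cells by 0.34 (SE 0.14, edgeR adjusted p 0.0478), where Esam was off, and did not pass in BMDM (0.60, SE 0.22, edgeR adjusted p 0.0681).

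The antisense gene Grin1os shares 1307 exon bases with Grin1, and 5.67% of the 75-base words of Grin1 occur in it as well. It had 0 counts in all BV2 monoculture, co-culture and DMSO libraries. Lrrc26, on the opposite strand 1 base beyond the end of Grin1, had 0 counts in every group of the 8 oxygen comparisons. Man1b1, 13151 bases upstream of Grin1, rose in GL261 cells by 0.60 (SE 0.12, edgeR adjusted p 0.00226) and did not pass in BV2 monocultures (-0.20, SE 0.10, edgeR adjusted p 0.100). Of the neighbours of Mgarp, Ndufc1, a subunit of respiratory complex I, fell in BV2 cells (-1.28, SE 0.15, edgeR adjusted p 2.12e-06) and GL261 cells (-1.07, SE 0.20, edgeR adjusted p 0.00140), and Elf2 rose in GL261 cells by 0.47 (SE 0.14, edgeR adjusted p 0.0173) and did not pass in BMDM. No 75-base word of Aire, Mgarp or Esam occurred in another gene.

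The genes around each member were taken from lists, tested for hypoxia against normoxia in the monocultures, where 61.9% of genes passed in BV2 cells (30.9% higher, 31% lower), 44.6% in GL261 cells (23.2% higher, 21.4% lower) and 23.9% in BMDM (13.3% higher, 10.6% lower). Genes known as HIF targets rose in all 3 cell types: 22 of 28 tested in BV2 cells, 25 of 28 in GL261 cells and 25 of 28 in BMDM passed as higher, with median log2 changes of 2.44, 2.02 and 3.01 beside 0, -0.03 and 0.03 over all genes. Egln3, the oxygen sensor that marks HIF for degradation, rose from 8.96 ± 0.533 to 417.4 ± 13.4 CPM in BV2 cells and from 3.70 ± 0.247 to 356.4 ± 18.4 CPM in BMDM (SD, n = 2). Bnip3, a receptor of mitophagy, rose from 15.7 ± 1.41 to 343.6 ± 19.2 CPM in GL261 cells and from 25.4 ± 2.36 to 950.1 ± 0.161 CPM in BV2 cells. Ankrd37, an ankyrin-repeat gene, rose from 3.02 ± 0.542 to 61.0 ± 1.17 CPM in GL261 cells. Adm, the gene of the vessel-dilating peptide adrenomedullin, went in BMDM from 0.274 ± 0.195 to 106.6 ± 13.8 CPM (SD, n = 2). The 2 that fell were the carbonic anhydrase gene Car12 in BV2 cells, from 76.9 ± 4.83 to 14.0 ± 0.316 CPM, and the glucose transporter gene Slc2a3 in GL261 cells, from 18.5 ± 4.01 to 10.5 ± 3.27 CPM. No HIF target passed as lower in BMDM.

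Genes for partners of the Aire protein moved in both directions. Of 18 tested, 4 rose and 9 fell in BV2 cells, 8 rose and 2 fell in GL261 cells, and 1 rose and 8 fell in BMDM, with median log2 changes of -0.27, 0.13 and -0.21 beside 0, -0.03 and 0.03 over all genes; the BMDM count was 3 to 5 whichever of the 4 monoculture libraries was left out. Xrcc6, the Ku70 subunit of DNA repair, fell in all 3, by 1.41, 1.01 and 1.34 on the log2 scale in BV2, GL261 and BMDM cells, and Xrcc5, the other Ku subunit, fell in BMDM (-1.26). Prkdc, the DNA-dependent kinase that binds Ku, fell in BV2 cells (-1.28), and Parp1, another repair gene, fell in GL261 cells (-0.82). Ccnt1, the cyclin of the elongation factor P-TEFb, and Mbd1, a methyl-DNA binding gene, rose in GL261 cells by 1.20 and 1.06. The kinase gene Hipk2 rose in BV2 cells by 0.55 and in BMDM by 1.58, and the chromatin remodeller Chd6 in BV2 cells by 0.52.

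Aire is known for the tissue antigens it brings out in the thymus. Of 8 such antigen genes 7 were matched, and none had enough counts to be tested in any monoculture comparison. The highest count of any of them in any of the 38 libraries was 2, for the mucin gene Muc6, while Aire itself had up to 1431 counts in hypoxic GL261 cells. Ins2 (insulin), Rbp3, Csn2 and Bpifb9a had at most 1 count in any library, and Pate4 and Bpifb1 had 0. Markers of thymic epithelium were low too: 8 markers summed to 8.02 to 8.96 CPM in hypoxic GL261 monocultures, below the 20.8 to 21.6 CPM of normoxic ones, and Foxn1, the master regulator of that tissue, did not exceed 0.830 CPM in any library.

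The mitochondrial transport genes, which include the Miro genes Rhot1 and Rhot2 and kinesins, mostly fell or did not pass. Of 15 tested in BV2 cells 3 rose and 9 fell, of 16 in GL261 cells 2 rose and 4 fell, and of 16 in BMDM, where Mgarp was highest, 1 rose and 4 fell, with 1 to 3 passing whichever of the 4 BMDM monoculture libraries was left out. The median log2 changes were -0.48, -0.01 and -0.05. Myo19, a mitochondrial myosin, fell in all 3, by 1.85, 1.62 and 1.20 on the log2 scale in BV2, GL261 and BMDM cells, and Mtx3, a metaxin, fell in BV2 cells (-1.57) and BMDM (-1.22). Rhot2 fell in GL261 cells (-0.83). Armcx3, an outer-membrane adaptor, rose in BV2 cells by 1.18 and in BMDM by 0.89, the kinesin genes Kif5a in BV2 cells by 1.34 and Kif5b in GL261 cells by 0.61, and the fusion gene Mfn2 in GL261 cells by 0.71.

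Relatives of Esam among the junctional adhesion molecules moved in both directions. Of 13, 7 were tested in BV2 cells (2 higher, 1 lower), 5 in GL261 cells (2 higher, 2 lower) and 8 in BMDM (1 higher, 1 lower), with median log2 changes of 0.36, -0.46 and 0.83. In BMDM the riser was Vsig2, the neighbour of Esam, and the faller Igsf11, from 7.44 ± 2.37 to 1.69 ± 0.134 CPM; neither passed when any 1 of the 4 monoculture libraries was left out. Igsf11 also fell in BV2 cells (-1.69) and GL261 cells (-0.63). F11r, which encodes JAM-A, and Clmp rose in BV2 cells by 0.71 and 0.72. In GL261 cells Cxadr, the coxsackievirus and adenovirus receptor, rose from 0.678 ± 0.0828 to 2.90 ± 0.161 CPM, the scaffold gene Magi1 rose by 0.85 and Jam3 fell (-1.02).

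Other glutamate receptor genes were mostly too low to test. Of 17 other ionotropic receptor genes, 3 were tested in BV2 cells and 4 in each of the others, and 1 passed in each cell type, the kainate subunit gene Grik5. Grik5 rose in BV2 cells from 2.54 ± 0.00232 to 8.05 ± 0.879 CPM (log2 change 1.71) and in BMDM from 4.40 ± 0.930 to 8.86 ± 2.61 CPM (1.26), and fell in GL261 cells from 107.8 ± 11.3 to 73.0 ± 16.0 CPM (-0.52). Without normoxic replicate 2 or hypoxic replicate 1 no gene of the list passed in GL261 cells, and in BMDM none passed without normoxic replicate 1 or 2 or hypoxic replicate 1. The NMDA subunit genes Grin2a, Grin2b, Grin2c and Grin3a had at most 6, 3, 2 and 5 counts in any library, and Grin3b at most 12. Grin2d was 0.330 ± 0.0468 CPM in normoxic and 0.362 ± 0.0543 CPM in hypoxic BV2 monocultures, against 0 and 17.9 CPM for Grin1.

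**Figure D5:**
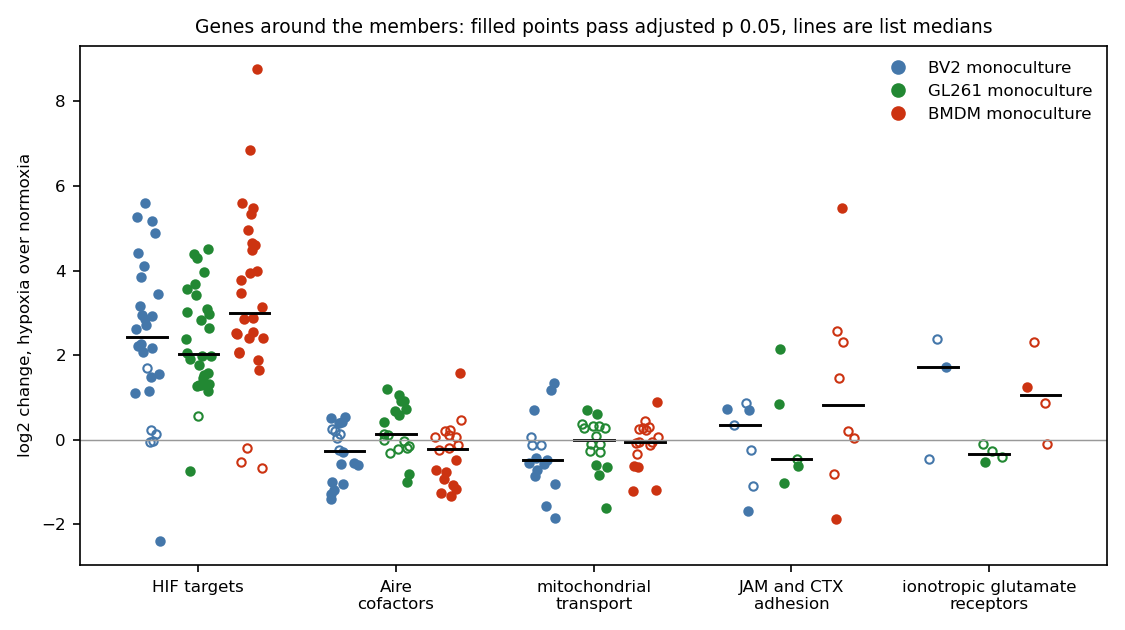
Log2 change from normoxia to hypoxia of the genes of 5 lists in the 3 monocultures; filled points passed an edgeR adjusted p of 0.05, open points did not, and black lines are list medians. HIF targets lie well above 0 in each cell type (medians 2.44, 2.02 and 3.01), and the other lists hold genes on both sides of 0; Aire-dependent antigens are not drawn because none could be tested.

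For each member, the genes with the most alike pattern were sought by the correlation of log2(CPM + 0.5) over the 18 group means, among 17208 other genes. Groups of the same cell type or oxygen level share their source, so these are descriptions. The nearest to Aire were the predicted gene Gm28863 (r = 0.958), Gadd45b, a stress-response gene (r = 0.946), and Gm16439 (r = 0.929). Gadd45b was never off: it was 36.9 CPM in normoxic and 550.7 CPM in hypoxic GL261 monocultures. Among the nearest to Mgarp were P4ha2, a collagen prolyl hydroxylase of the HIF target list (r = 0.956), and Smtnl2 (r = 0.932). P4ha2 was 10.5 and 425.5 CPM in normoxic and hypoxic BMDM monocultures and at most 0.0824 CPM in BV2 monocultures, where Mgarp was off.

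The nearest to Esam were Gm43814 (r = 0.987), Ptger3, a receptor of prostaglandin E2 (r = 0.965), and Rab33a, a small GTPase (r = 0.960). Ptger3 was 0.351 CPM in normoxic and 8.35 CPM in hypoxic BMDM monocultures. The nearest to Grin1 were Gm49338 (r = 0.946), Wdr19, a gene of ciliary transport (r = 0.938), and Fam168a (r = 0.922). Their group means were never below 9.47 CPM and were highest in BV2 cells with panobinostat, as Grin1 was, at 39.2, 35.8 and 213.9 CPM.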

How the data were processed

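The authors deposited raw gene counts in 3 tables, for BV2 and GL261 cells, for BMDM, and for the panobinostat libraries, 38 libraries in all. Per the submitters' processing notes, the tools were Trimmomatic 0.36, STAR 2.6, SAMtools and HTSeq 0.9.1, with Picard 2.17.1 for the first table, on mm10; the gene annotation and strand setting are not given in the sources used here. Symbols, exons and neighbours were taken from GENCODE M21 (55141 of 55487 identifiers had a symbol), and promoters from RefSeq.

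CPM are counts divided by library totals, and RPKM use merged exons. Tests were edgeR 4.0.16 quasi-likelihood F tests in R 4.3.3, with TMM scaling, the default low-count filter (minimum count 10, total 15) and Benjamini-Hochberg adjustment over all genes at 0.05, in 1 fit per cell type and table. No test is given where both groups averaged at most 3 counts, or, for a difference of effects, where a group was at 0. Values built from the normoxic counts that chose the members, or with fewer than 2 libraries of 10 counts among the groups compared, are given without a test; the planned test of oxygen response by co-culture is among them. The fits were tested on simulated data. Intervals of ratios are exact, at 95%, and like the 3-count limit cover counting error only. DESeq2 1.42.0, other filters and scalings, a replicate block and leaving out each library were the alternatives.

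The members and lists were chosen with earlier results of these data known. Genes named from the lists are the 2 largest rises and 2 largest falls that passed in each monoculture comparison, among genes averaging 1 or more in log2 CPM; the others named are the nearest gene on each side of a member, overlapping genes, the 3 most alike genes of each member (1 of them is not reported here) and the 5 genes most often off and then on. Vsig2, the NMDA subunits and single antigens and markers were added after their values were seen. Same-numbered BMDM co-culture libraries deviated together between normoxia and hypoxia (correlations 0.553, 0.233 and 0.371). This bears on the oxygen comparison of the members and on the difference of their oxygen responses, both given without a test. Between groups in which members were tested, the correlation was 0.668 for DMSO and panobinostat in hypoxic BMDM and 0.515 in hypoxic BV2 cells. For monoculture and co-culture it was 0.434 in normoxic and 0.623 in hypoxic GL261 cells. It was -0.023 in hypoxic BV2 cells, and -0.046 and -0.039 in hypoxic BMDM. Normoxic and hypoxic monocultures were compared by a test for the lists and the neighbouring genes. Between them the correlation was 0.474 in BV2 cells, 0.037 in GL261 cells and 0.282 in BMDM. The main fits of these tests had no replicate block. The 22 pairs of replicates all differed beyond sampling noise (chi-square per degree of freedom 6.7 to 156.0).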

Additional observations from a re-analysis of the deposited data

How the results depend on the processing

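Of 180 alternative values for the 17 member tests, 161 kept their direction and side of the threshold, 3 passed it newly, 7 no longer passed and 9 changed sign. The change of sign concerned no member that had passed. With the replicate number as a block, Esam in hypoxic BMDM co-cultures changed by -0.12 and the panobinostat difference of Grin1 was -0.057, and Esam with panobinostat in BMDM (-2.07, edgeR adjusted p 0.0271) passed under the block. Outside the BMDM co-cultures only 2 numbers are shared, so pairing could not be established; the block moved the count of genes past the threshold in the BMDM panobinostat comparison from 0 to 2044 and in that of BV2 from 1941 to 4025, and changed no other call of a member. Esam with panobinostat also passed in DESeq2 (-2.05) and in the fit with no filter (-2.06). Among values given without a test, Mgarp in normoxic BMDM co-cultures was 2.87, and 2.90, 2.84 and 2.99 with DESeq2, no filter and the block; with no filter Aire in normoxic GL261 co-cultures was 3.54 and the Mgarp difference of oxygen responses in BMDM -2.60. Grin1 in BV2 cells with panobinostat no longer passed with a mean CPM of at least 1 (1.62).

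Leaving out 1 library at a time, Grin1 in BV2 cells with panobinostat ranged from 1.01 to 2.59 and Aire in hypoxic BMDM co-cultures from 2.34 to 2.89. Mgarp and Esam in hypoxic BMDM co-cultures ranged from -0.033 to 0.39 and -0.035 to 0.34, the differences of oxygen responses from -1.25 to 0.035 for Esam in BMDM and -0.78 to 0.061 for Grin1 in GL261 cells (no test), and Mgarp with panobinostat in BMDM from -0.17 to 1.05. The panobinostat differences ranged from -0.68 to 1.00 for Grin1 and, with no test, from -0.93 to 1.73 for Aire. Leaving normoxic DMSO replicate 1 of BMDM out of the panobinostat fit, an alternative added after the data were seen, changed no member's call (Esam -2.06, edgeR adjusted p 0.0976). Without normoxic GL261 monoculture replicate 1, Aire had 0 counts in that group and neither its normoxic comparison nor its difference of oxygen responses gave a value. The log2 ratio of hypoxia over normoxia ranged for Aire from 3.41 to 3.84 (BV2 co-culture), 8.23 to 10.99 (GL261 monoculture) and 6.84 to 9.09 (GL261 co-culture), for Mgarp from 3.57 to 7.01 and Esam from 7.04 to 9.23 (BMDM with DMSO), and for Grin1 from 5.66 to 8.06 (BV2 co-culture); with TMM-scaled CPM that of Mgarp in BMDM monocultures was 8.09. In BMDM monocultures the genes past the threshold numbered 3 to 5 for Aire cofactors, 1 to 3 for mitochondrial transport, 0 to 0 for junctional adhesion and 0 to 1 for glutamate receptors, and 0 to 1 for glutamate receptors in GL261 cells. With a mean CPM of at least 1, or only the groups compared, 1 adhesion gene passed in BMDM in each case.

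With off at most 10 counts, the genes off in normoxia and on in hypoxia were 184, 323 and 214 in BV2 monoculture, co-culture and DMSO, 55 and 90 in GL261 monoculture and co-culture, and 148, 114 and 236 in BMDM monoculture, co-culture and DMSO, with Esam among them in all 3 BMDM comparisons. In the same order they were 139, 238, 152, 31, 50, 108, 68 and 195 with on at 0.5 CPM, and 7, 11, 3, 1, 0, 2, 0 and 7 with on at 5 CPM. Over the alternatives other than leaving out a library, all genes past the threshold ranged from 0 to 2867 for panobinostat in BMDM, 1728 to 4025 in BV2 cells and 2 to 613 for their difference. They ranged from 231 to 2141 in hypoxic BMDM co-cultures, and 46 to 361 and 20 to 737 in normoxic and hypoxic GL261 co-cultures. CACGTG was searched after the first matches were seen. The causes of these changes were not tested, and with 2 libraries in most groups and under 10 counts in many, small differences of Aire in BV2 cells and of Grin1 in BMDM were not detectable.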
